A study of Homo sapiens with 24 samples.

Results

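Glycolysis turns glucose into pyruvate, and the genes described here encode 10 of the enzymes along that route, from hexokinase 2 to lactate dehydrogenase A: HK2, GPI, ALDOA, TPI1, GAPDH, PGK1, PGAM1, ENO1, PKM and LDHA. They were chosen by name, from 20037 protein-coding genes on chromosomes 1 to 22, X and Y, and all 10 were matched in the RefSeq annotation of hg38. Earlier results of these data were known when they were chosen, so the shares below describe these genes and are not a test. A gene was counted as marked in a library when a Myc peak of that library reached within 1 kb of either end of its RefSeq span. The data were 2 deposited Myc peak lists from the established human cell line MIA PaCa-2, from a pancreatic carcinoma, made by CUT&Tag, in which an antibody directs a transposase to cut and tag DNA beside its target. Both groups carried the same tet-on MED30 expression construct and consist of 1 library each, one grown with no doxycycline and the other titled as day 5 of doxycycline, the drug that switches such a construct on. MED30 is a subunit of Mediator, which links transcription factors to RNA polymerase II, and the series asks how raising MED30 affects the binding of other factors. The labels do not say whether the line is a single clone, and their shared protocol names 2 days of doxycycline where the title has 5. The other 22 samples were not analysed here, among them IgG controls and a Myc library of the same cells at an earlier day of doxycycline. A Myc peak is therefore a peak of a Myc library, and some can be background.

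Glycolysis has a first phase that spends ATP to phosphorylate glucose and split it into triose phosphates, and a second phase that earns ATP and NADH on the way to pyruvate. Lactate dehydrogenase then reduces pyruvate to lactate and gives back the NAD+ that the pathway needs. Tumour cells often run this route at a high rate even with oxygen present, and several of its genes are long-known targets of both Myc, which pairs with MAX on the E-box CACGTG, and the hypoxia-inducible factors, whose core site is often written ACGTG.

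The list without doxycycline held 3472 peaks on these chromosomes and the day 5 list 6727, and 2297 and 4476 of them lay at the ends of protein-coding genes. Read totals are not in the lists, so the depth of the libraries is not known. The number of fragments over each peak summit was recovered from the deposited fold and −log10 p-value, and is the measure of signal here. At gene ends the median peak had 11 fragments without doxycycline (quartiles 8 and 16) and 12 at day 5 (8 and 18). These medians are over all listed peaks, and the lists differ in length. Over the 1999 gene-end peak pairs that overlap between the lists the medians were 12 and 17 fragments. Intervals below are exact 95% Poisson intervals, or exact conditional binomial intervals for ratios, and cover counting error alone. With 1 library per condition there is no replicate check, no difference between the libraries was tested, and every comparison is between these 2 libraries. Of 17 marker genes of pancreatic acinar and endocrine cells, leukocytes, fibroblasts and carcinoma epithelium, 0 were marked in either library. Myc peaks do not measure expression, so the identity of the line could not be checked with them.

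Myc peaks stood at 5 of the 10 enzymes without doxycycline and at 8 of 10 at day 5. Of all protein-coding genes, 14.4% were marked without doxycycline and 27.4% at day 5. HK2, ALDOA, GAPDH, ENO1 and LDHA were marked in both libraries, where the share of all genes was 12.9%. GPI, PGK1 and PKM were marked at day 5 alone, as were 14.5% of all genes. TPI1 and PGAM1 were marked in neither, as were 71.1% of all genes. All of the peaks counted were at the 5′ side of their gene, and none of the 10 had a peak at its far end or elsewhere in its body in either library. When the day 5 list was limited to its 3472 highest-ranked peaks, so that both lists were equally long, 5 of the 10 were marked in each, and they were the 5 named above for both. Under that setting 15.7% of all genes were marked at day 5 and 10.1% in both libraries. The 3 enzymes marked at day 5 alone thus depended on how many peaks were taken.

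Where the DNA letters bear on the peaks, the RefSeq promoter windows (build GRCh38.p14, 250 bases before to 50 after a listed start) are printed 5′ to 3′ on the strand of the gene. The first 3 hold CACGTG inside a day 5 Myc peak, and ENO1 is shown as the gene with the highest day 5 summit among those with a window that overlaps a peak. Capitals mark CACGTG in the first 3 and the GC-box letters GGGCGG in ENO1, which has no CACGTG in its window.
HK2, the downstream of its listed starts, plus strand, chr2:74834920-74835219: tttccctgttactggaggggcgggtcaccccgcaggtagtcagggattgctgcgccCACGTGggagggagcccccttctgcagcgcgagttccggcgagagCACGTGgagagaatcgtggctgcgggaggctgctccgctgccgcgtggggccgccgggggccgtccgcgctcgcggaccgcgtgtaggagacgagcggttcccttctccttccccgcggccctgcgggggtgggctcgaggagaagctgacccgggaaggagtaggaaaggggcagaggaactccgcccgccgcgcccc
ALDOA, the middle of its listed starts, plus strand, chr16:30064247-30064546: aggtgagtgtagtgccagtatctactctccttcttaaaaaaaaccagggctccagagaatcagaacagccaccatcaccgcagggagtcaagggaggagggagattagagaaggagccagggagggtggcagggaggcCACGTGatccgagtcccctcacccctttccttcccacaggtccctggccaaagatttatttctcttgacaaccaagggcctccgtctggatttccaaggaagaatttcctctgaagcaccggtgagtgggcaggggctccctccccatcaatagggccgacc
LDHA, the upstream of its listed starts, plus strand, chr11:18394313-18394612: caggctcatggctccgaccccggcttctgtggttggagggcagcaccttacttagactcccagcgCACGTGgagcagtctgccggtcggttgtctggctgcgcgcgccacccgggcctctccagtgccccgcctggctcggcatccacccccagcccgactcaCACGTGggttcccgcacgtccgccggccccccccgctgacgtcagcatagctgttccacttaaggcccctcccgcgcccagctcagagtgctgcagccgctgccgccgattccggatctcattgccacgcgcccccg
ENO1, minus strand, chr1:8878637-8878936: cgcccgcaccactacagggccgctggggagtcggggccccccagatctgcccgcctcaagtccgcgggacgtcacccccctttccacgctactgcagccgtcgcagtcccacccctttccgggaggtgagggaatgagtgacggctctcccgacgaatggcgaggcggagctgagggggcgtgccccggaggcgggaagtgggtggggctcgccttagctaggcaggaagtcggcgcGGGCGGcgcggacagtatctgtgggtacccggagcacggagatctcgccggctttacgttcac

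The pathway opens with HK2, the hexokinase that traps glucose in the cell by phosphorylating it, and its peak was among the weakest of its list without doxycycline and wide and high at day 5. HK2 (chromosome 2, span 74834127 to 74893359) had 8 fragments over the summit without doxycycline (interval 3.45 to 15.8), in a peak of 347 bp at 74834156 to 74834502. At day 5 it had 28 fragments (18.6 to 40.5), in a peak of 1496 bp at 74834064 to 74835559. By the authors' −log10 q, which were 2.20 and 14.1, the peaks ranked 3282 of 3472 and 834 of 6727. The Poisson intervals of the 2 counts did not overlap. They take no account of the median ratio of 1.44 over all gene-end peaks shared by the libraries. The day 5 peak covered the whole of the earlier one, and its summit lay 736 bp further into the gene, 56 bp past the downstream listed start. Both CACGTG matches in the HK2 window printed above lay inside the day 5 peak, 202 and 247 bp from its summit, and outside the peak without doxycycline. HK2-DT, a long non-coding RNA gene at 74832655 to 74833987, just upstream of HK2, had an end within 1 kb of both peaks.

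GPI, which isomerises glucose phosphate to fructose phosphate, was marked at day 5 by a peak of 585 bp at 34358977 to 34359561 on chromosome 19. It had 10 fragments over the summit (4.80 to 18.4) and ended 157 bp before the span (34359718 to 34402413). The only GPI start in the promoter table lies 5274 bp inside the span, and the peak was 5431 bp from it. Without doxycycline the nearest peak to GPI lay 1702 bp beyond the other end of the gene, outside the 1 kb rule, with 5 fragments (1.62 to 11.7) and its summit 189 bp from an end of PDCD2L. GPI is therefore the member nearest to the threshold from outside, and the one whose day 5 mark depended on which start was used.

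ALDOA, the aldolase that splits fructose bisphosphate into trioses, had a summit of 19 fragments in each library (11.4 to 29.7 in both). These peaks lay inside the gene (chromosome 16, span 30064279 to 30070420), at 30065223 to 30065594 without doxycycline and 30065054 to 30065657 at day 5, with summits 116 bp apart and 349 and 465 bp before the most downstream of 3 listed starts. The peak without doxycycline began 944 bp from the span start, so it is the mark closest to the 1 kb limit from inside. At day 5 a separate peak at 30064134 to 30064578 covered the upstream starts, with 15 fragments (8.40 to 24.7). The CACGTG of the ALDOA window printed above lay 52 bp from the summit of that peak and 1023 bp from the summit in the list without doxycycline. No peak was listed over the upstream starts of ALDOA without doxycycline. LOC112694756, another annotated protein-coding gene, spans ALDOA, but none of its ends lay within 1 kb of these peaks.

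TPI1, which interconverts the trioses, had no Myc peak in or near it. On chromosome 12 (span 6867420 to 6870948) the nearest peak was 14.7 kb away without doxycycline and 14.5 kb away at day 5, in both cases beside USP5, with 32 (21.9 to 45.2) and 52 (38.8 to 68.2) fragments. A missing peak means that nothing there passed the threshold of the authors' caller, and Myc below it cannot be told from none.

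**Figure D1:**
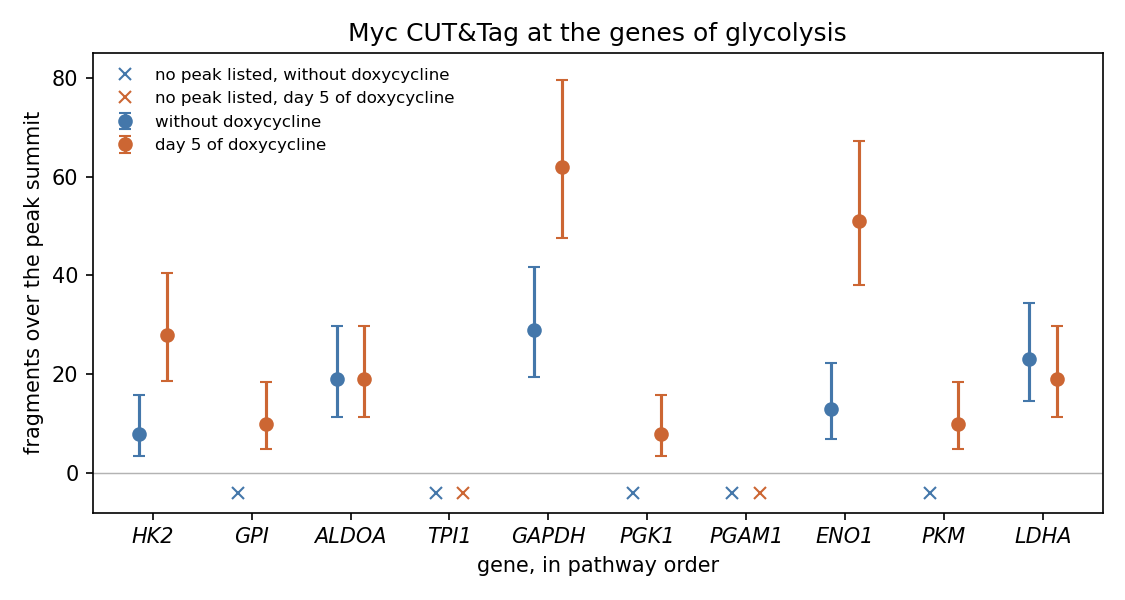
Fragments over the summit of the highest-ranked Myc peak within 1 kb of an end of each gene, without doxycycline (blue) and at day 5 (orange), with exact 95% Poisson intervals as bars and genes in pathway order; crosses under the zero line stand for no listed peak and carry no value. GAPDH had the most fragments in both libraries, 29 and 62, and the intervals of HK2, GAPDH and ENO1 did not overlap between libraries. The counts are not adjusted for the median ratio of 1.44 over all shared gene-end peaks, which lay inside the ratio interval of GAPDH (1.35 to 3.45).

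GAPDH, which oxidises glyceraldehyde phosphate and makes the NADH of the pathway, carried the highest Myc summit of the 10 enzymes in each library. It had 29 fragments without doxycycline (19.4 to 41.6) and 62 at day 5 (47.5 to 79.5), intervals that did not overlap. The interval of their ratio (1.35 to 3.45) included the median of all shared gene-end peaks, 1.44. The peaks, at 6533621 to 6534412 and 6532873 to 6534421 on chromosome 12, were 792 and 1549 bp wide and ranked 485 of 3472 and 98 of 6727, with −log10 q of 12.3 and 32.3. Both summits lay upstream of the span (6534517 to 6538371), by 323 bp without doxycycline and 399 bp at day 5, and inside GAPDH-DT, a long non-coding RNA at 6531916 to 6534407. The day 5 peak also came within 918 bp of an end of NCAPD2, a condensin subunit, though GAPDH was the nearest protein-coding gene to its summit. The only GAPDH start in the promoter table lies 747 bp inside the span, and its window, with 1 CACGTG, was outside the peaks, which ended 852 and 843 bp before that start.

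PGK1, the kinase of the first ATP-forming step, was marked at day 5 alone. On the X chromosome (span 78104248 to 78129295) its peak at 78104030 to 78104812 had 8 fragments (3.45 to 15.8), with the summit 13 bp before the start. The PGK1 window of the promoter table, which holds part of that peak, had 3 matches of ACGTG, all inside the peak, and no CACGTG; the rest of the peak was not searched. Without doxycycline the nearest peak to PGK1 was 194 kb away. PGAM1, the mutase that moves the phosphate group before the enolase step, was marked in neither library (chromosome 10, span 97426191 to 97433444). Its nearest peaks were 12.7 and 12.6 kb away, beside ZDHHC16, with 10 (4.80 to 18.4) and 13 (6.92 to 22.2) fragments.

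ENO1, the enolase that forms phosphoenolpyruvate, had the largest ratio between the libraries among the 5 enzymes marked in both. It had 13 fragments without doxycycline (6.92 to 22.2), ranked 2419 of 3472, and 51 at day 5 (38.0 to 67.1), ranked 146 of 6727. The peaks, at 8878677 to 8879106 and 8878561 to 8879310 on chromosome 1, both covered the ENO1 start at 8878686, since the gene (8861000 to 8878686) is on the minus strand. Their summits lay 42 bp and 289 bp upstream of that start, and ENO1-AS1, a long non-coding RNA on this flank at 8878835 to 8879885, had an end inside both peaks. The GGGCGG in the ENO1 window printed above was 31 bp from the summit without doxycycline and 278 bp from it at day 5.

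PKM, the pyruvate kinase that completes the second ATP-forming step, had the weakest listed peak of the 10 enzymes by rank. At day 5 it had 10 fragments (4.80 to 18.4) in a peak of 482 bp at 72231317 to 72231798 on chromosome 15, which covered the upstream end of its minus-strand span (72199029 to 72231591). Its −log10 q of 1.86 ranked 6558 of 6727 in the day 5 list, where the smallest listed value was 1.33. Without doxycycline the nearest peak to PKM was 80.8 kb away.

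LDHA, which turns pyruvate into lactate, was marked in both libraries, by peaks with 23 fragments over the summit without doxycycline (14.6 to 34.5) and 19 at day 5 (11.4 to 29.7). The peaks, at 18393998 to 18394776 and 18394037 to 18394677 on chromosome 11, covered the start of the span (18394563 to 18408425), with summits 346 and 156 bp upstream of it. They ranked 367 of 3472 and 2687 of 6727, with −log10 q of 14.0 and 7.14, and LDHA had the highest rank of the 10 enzymes in the list without doxycycline. Both CACGTG matches in the LDHA window printed above lay inside both peaks. They were 26 and 72 bp from the day 5 summit and 164 and 262 bp from the summit without doxycycline.

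**Figure D2:**
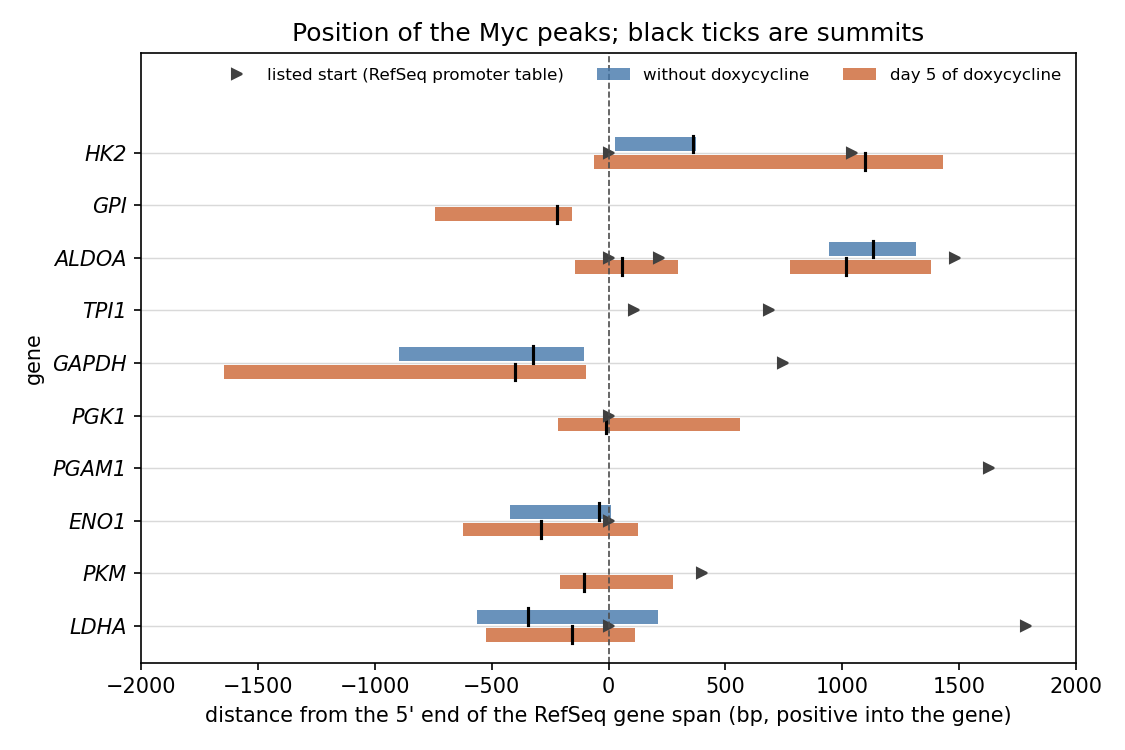
Extent of each Myc peak (bars, blue without doxycycline and orange at day 5), with its summit (black tick), along the distance in bp from the 5′ end of the RefSeq gene span, positive into the gene; triangles are the starts of the RefSeq promoter table. GAPDH and GPI peaks end before the span, the day 5 peak of HK2 reaches from 63 bp before the span start to 1432 bp inside it, and the paired ALDOA peaks lie inside the gene; 1 GPI start, 5274 bp inside, is beyond the axis.

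The 5 enzymes marked in both libraries had overlapping peaks (at least 1 bp) in all 5 cases, and differed among themselves in how the summit counts compared. Over the 1999 overlapping peak pairs at the ends of protein-coding genes the median ratio of day 5 to no doxycycline was 1.44 (quartiles 1.14 and 1.83), and 12.3% of pairs had a ratio below 1. The median of the 5 enzymes was 2.14. ENO1 had a ratio of 3.92 (interval 2.10 to 7.86), above 99.4% of these pairs, and HK2 3.50 (1.55 to 8.89), above 98.6%. The intervals of these genes lay above the median of all pairs. For HK2 the ratio sets different sites side by side, since its summits were 736 bp apart, and its peaks did not count as shared when summits had to lie within 500 bp or the overlap had to be 50% of each peak. GAPDH had 2.14 (1.35 to 3.45), ALDOA 1.00 (0.501 to 2.00) and LDHA 0.826 (0.425 to 1.59), with intervals that included that median. The LDHA ratio was above 5.25% of the pairs. The caller's local background at the summit, recovered with the fragments, was also higher at day 5 for each of the 5: by 2.64 times for HK2, 2.43 for ENO1, 1.83 for GAPDH, 1.54 for LDHA and 1.45 for ALDOA, beside a median of 1.63 over all pairs. The part of this background in the ratios was not tested.

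**Figure D3:**
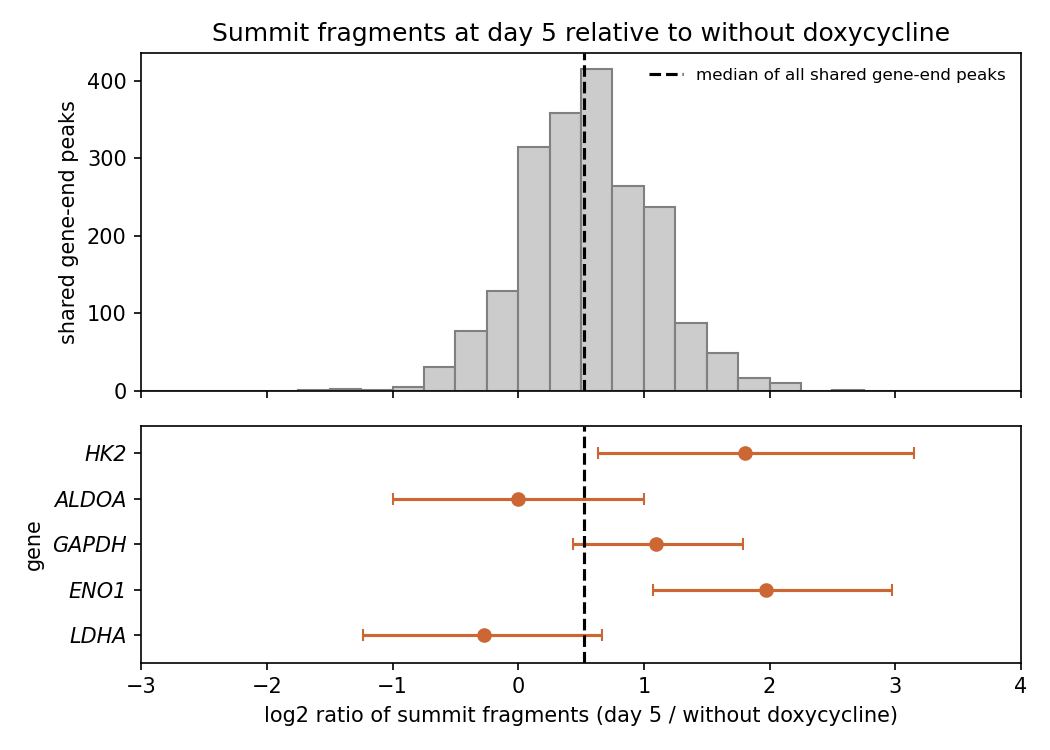
Upper panel: number of overlapping gene-end peak pairs (of 1999) by the log2 ratio of summit fragments at day 5 to those without doxycycline. Lower panel: the same ratio for the 5 enzymes marked in both libraries with exact 95% conditional binomial intervals; the dashed line is the median of all pairs, a ratio of 1.44, and the intervals of HK2 and ENO1 lie to its right while those of ALDOA, GAPDH and LDHA cross it.

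The letters of the promoter windows were searched on both strands for CACGTG, for CACGCG, for ACGTG, for CANNTG and for GGGCGG. Every CACGTG is also a CANNTG and holds ACGTG on each strand. The 10 enzymes have 15 windows in the table, with a GC content of 53.3 to 75%. The only windows of GPI, PGAM1, GAPDH and PKM are at starts 5274, 1627, 747 and 401 bp inside their spans. The span starts of these genes were therefore not searched. CACGTG was in 1 window each of HK2, ALDOA, GAPDH and LDHA, so in 4 of 15, beside 8.34% of the 22199 windows of protein-coding genes, which cover 15843 genes. Among windows of all those genes that overlap a Myc peak, 16.2% without doxycycline and 13.9% at day 5 held it. Of the 6 CACGTG matches in the windows of the enzymes, 2 lay inside a listed peak without doxycycline, both at LDHA, and 5 at day 5, at HK2, ALDOA and LDHA. Of all 1851 windows with CACGTG, 439 overlapped a peak without doxycycline and 733 in the longer day 5 list. That count is of windows, and does not ask whether the match itself lay inside the peak. ACGTG was in 10 of the 15 windows, from 7 enzymes, and in 23.0% of all windows. CACGCG was in 5 of 15, from HK2, LDHA, PKM and TPI1, and in 14.3% of all windows. CANNTG was in 8 of 15 and in 65.1% of all windows, and GGGCGG in 11 of 15 and in 56.3%. The windows of ENO1, PGK1 and PKM, which hold no CACGTG, each overlapped a day 5 peak, and both TPI1 windows, which hold none either, overlapped no peak. A match describes letters in these windows, and says nothing of what lies outside them.

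The neighbouring steps of the pathway were read from lists of related genes, counted by the same rule. Which other genes share a peak was looked up for the 10 enzymes and not for these lists. A mark here can therefore come from a peak that lies nearer to another gene. Of all protein-coding genes 11.4% without doxycycline and 22.1% at day 5 stayed marked when a peak counted for its nearest coding gene only. Of 22 other isozymes and enzymes of the same steps, 4 were marked without doxycycline and 8 at day 5 (18.2 and 36.4%, beside 14.4 and 27.4% of all genes). ENO3, the muscle enolase, had 10 (4.80 to 18.4) and 28 (18.6 to 40.5) fragments, and PKLR, the liver and red cell pyruvate kinase, 11 (5.49 to 19.7) and 7 (2.81 to 14.4). PFKL, a phosphofructokinase, which commits sugar to glycolysis, was marked at day 5 alone with 15 fragments (8.40 to 24.7), as was PFKM with 6 (2.20 to 13.1), whereas PFKP was marked in neither. GAPDHS and ENO2 were marked in both, and ADPGK and BPGM at day 5 alone. HK1, HK3, ALDOC and LDHB were among the 14 marked in neither.

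Glucose and lactate transporters and their partners were marked in 4 of 9 cases in both libraries, beside 12.9% of all genes. SLC16A1, a lactate carrier, had 17 (9.90 to 27.2) and 43 (31.1 to 57.9) fragments, and SLC2A4, the insulin-responsive glucose carrier, 18 (10.7 to 28.4) and 37 (26.1 to 51.0). SLC2A1, the widely expressed glucose carrier, had 9 (4.12 to 17.1) and 15 (8.40 to 24.7), and BSG, the chaperone of lactate carriers, 11 and 14. Of 11 regulators and branch enzymes 1 was marked without doxycycline, GPD1, and 5 at day 5 (9.09 and 45.5%, beside 14.4 and 27.4% of all genes). TIGAR, a phosphatase that slows glycolysis, had 14 fragments at day 5 (7.65 to 23.5) and PFKFB3, which makes the activator of phosphofructokinase, 7 (2.81 to 14.4). Genes that carry pyruvate into mitochondria and oxidise it were marked in 4 and 8 of 14 cases. These were 28.6 and 57.1%, beside 14.4 and 27.4% of all genes. DLD and DLAT, subunits of pyruvate dehydrogenase, had 20 and 15 fragments without doxycycline and 22 and 23 at day 5, and PDK1, the kinase that inhibits the complex, had 11 at day 5 alone.

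**Figure D4:**
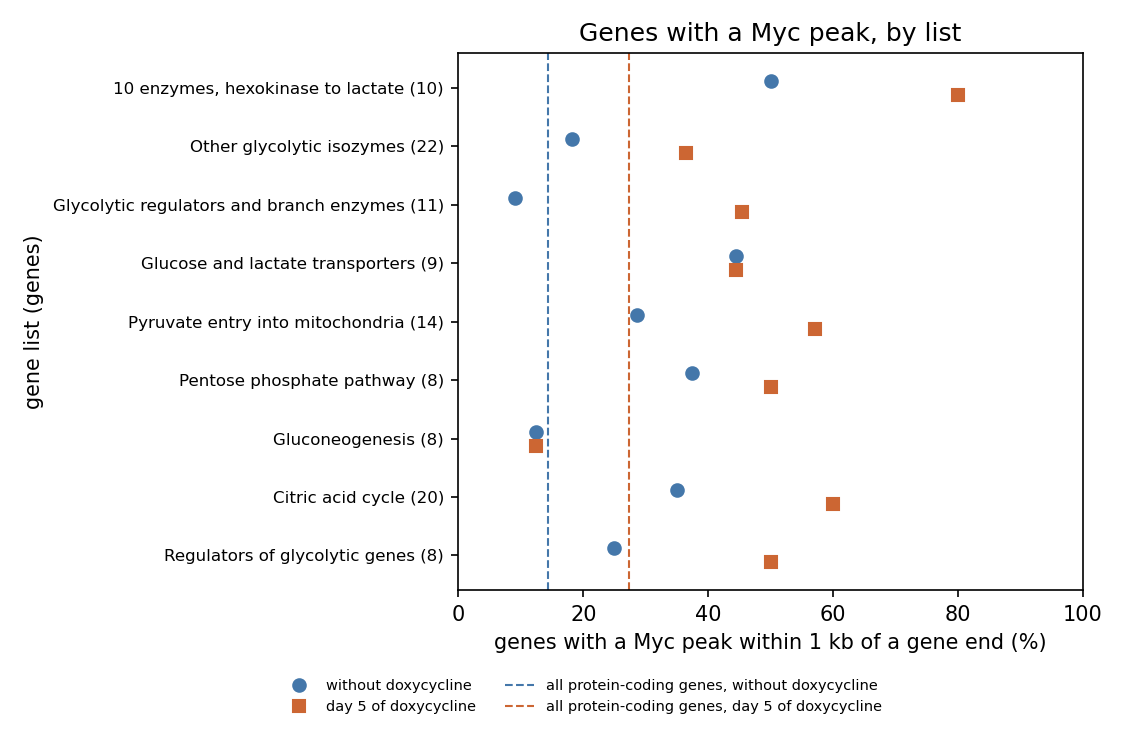
Share of genes with a Myc peak within 1 kb of a gene end, in percent, without doxycycline (blue circles) and at day 5 (orange squares), for each list with its number of genes in brackets; dashed lines are the shares of all 20037 protein-coding genes, 14.4 and 27.4%. The 10 enzymes lie at 50.0 and 80.0%, and the gluconeogenesis list at 12.5% in both libraries.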

How the data were processed

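Myc CUT&Tag peak lists of 2 libraries were used, 1 per condition, grouped by their titles. The submitters' processing notes name MACS2, Bowtie2, Trim Galore and deepTools, with build hg38. For versions, settings, any IgG control in peak calling and reads that map to several places, the sources used here give no details. The lists have no header. In each, the authors deposited a score (−log10 q times 10, without decimals), the fold over local background (a ratio), the −log10 p-value, the −log10 q-value and the summit offset in bp. Folds and −log10 values served to rank peaks within a list and to recover fragments.

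Fragments (n) and background (b) were the whole n for which fold is (n + 1)/(b + 1) and the p-value is the Poisson tail above n, within 0.001 in −log10 p. They were found for 99.89% and 99.97% of peaks, and for all peaks of the 10 genes. On lists of 3539 and 6906 peaks simulated with this same formula 100.0% were recovered. That checks the search for n, and cannot show that the formula holds for the deposited lists. Duplicates from PCR are not visible here, so fragments need not be independent molecules.

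Gene spans, and starts with strand for 15843 genes, came from RefSeq (GRCh38.p14). A gene with several peaks is represented by the one with the highest −log10 q. Named were the 10 genes, list genes with a peak, some list genes without one, and genes sharing a peak with the 10. The 10 genes, the lists and the settings were chosen with earlier results of these data known. Python 3.11.15, scipy 1.17.1 and pandas 2.3.3 were used. Alternatives were the window, the gene end, the nearest gene, the threshold, the contigs, equal numbers of peaks, the overlap rule and, added after seeing the data, the starts of the promoter table.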

Additional observations from a re-analysis of the deposited data

How the results depend on the processing

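The counts of marked enzymes (5 without doxycycline, 8 at day 5 and 5 in both) and of overlapping peaks (5) stayed within 1.5 times in 24 of 28 alternatives. The exceptions took fewer peaks by construction. In the upper 50% of each list by −log10 q the counts were 3 without doxycycline, 5 at day 5 and 3 in both (8.02, 15.3 and 6.88% of all genes), without HK2 and ENO1 in the first and without GPI, PGK1 and PKM in the day 5 list. With equal numbers of peaks the day 5 count was 5 (15.7% of all genes). A window of 500 bp dropped ALDOA without doxycycline, and one of 2500 bp added GPI there. A −log10 q of at least 3 dropped HK2 without doxycycline and PKM at day 5. Use of the promoter table's starts, chosen after seeing the data, dropped GPI at day 5. The start of the span and the nearest coding gene left the same enzymes. Every contig did so too, but could not have changed them, since all of these genes lie on chromosomes already counted. The results with every contig are included in the 24 of 28 above, and they do not bear on stability. Peaks overlapped for 5 enzymes, and for 4, without HK2, under reciprocal overlap of 50% or summits within 500 bp. No paired analysis was possible because each condition has 1 Myc library. Low counts limit some marks: PGK1 at day 5 and HK2 without doxycycline had the fewest fragments, 8 each. By rank the weakest mark was PKM at day 5, with 10 fragments.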

Other observations

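Myc peaks were also counted at pathways that branch from or follow glycolysis. As in the lists above, a peak can lie nearer to a gene outside the list. Of 20 citric acid cycle genes 7 were marked without doxycycline and 12 at day 5 (35.0 and 60.0%, beside 14.4 and 27.4% of all protein-coding genes). OGDH, of the oxoglutarate dehydrogenase complex, had 11 fragments (5.49 to 19.7) and then 31 (21.1 to 44.0). SUCLG2, a succinyl-CoA ligase subunit, was marked at day 5 alone with 24 fragments (15.4 to 35.7), and SUCLA2, its counterpart, without doxycycline alone with 3 (0.619 to 8.77).

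The pentose phosphate pathway, which draws on the product of hexokinase, had 3 and 4 of 8 genes marked. These were 37.5 and 50.0%, beside 14.4 and 27.4% of all genes. PGD, which makes the pentose phosphate, had 8 (3.45 to 15.8) and 20 (12.2 to 30.9) fragments, and RPIA, an isomerase, 9 (4.12 to 17.1) and 16 (9.15 to 26.0). Of 8 gluconeogenesis genes G6PC3, a widely expressed glucose phosphatase, was the only one marked. That was 12.5% in each library, beside 14.4 and 27.4% of all genes. G6PC3 had 24 (15.4 to 35.7) and 51 (38.0 to 67.1) fragments. PCK1, PCK2 and FBP1 were among the 7 marked in neither, as were 71.1% of all genes. Among 8 regulators of glycolytic genes MAX and MXD1 were marked in both libraries, as were 12.9% of all genes. MLX and MLXIP were marked at day 5 alone, as were 14.5% of all genes. HIF1A, ARNT, EPAS1 and MLXIPL, a relative of MLXIP by name, were marked in neither, as were 71.1% of all genes.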
